A study of Mus musculus with 8 samples.

Results

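Nrip1 encodes RIP140, a coregulator that nuclear receptors and other transcription factors recruit to DNA, where it mostly lowers transcription. The 1077 regions described here lie inside introns and were called as gaining H3K27ac, an acetyl mark on the tail of histone H3, in myotubes without Nrip1. They are the intronic regions of the increased list on chromosomes 1 to 19 and X, without chromosomes 4, 7, 10 and 16. They were chosen by the measured difference itself, because a region entered the increased list when its H3K27ac signal was higher in Nrip1KO than in Ctrl myotubes by 2-fold or more. The series lists 11180 differential regions in all, 3917 increased and 7263 decreased. A region was called intronic when its centre was more than 1 kb from every annotated transcript start, inside a gene and outside every exon.

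The 8 libraries were made by CUT&RUN, which cuts and sequences the DNA around an antibody-bound protein, from primary mouse myotubes after 4 days of differentiation. They form 4 groups of 2, Nrip1KO and Ctrl each with the H3K27ac antibody and with non-specific IgG. The cells were satellite cells of gastrocnemius muscle. The floxed Nrip1 mice (C57BL/6J) had been bred with Cre mice (C57BL/6JN), and littermates without Cre were the controls. The methods say that nuclei were pooled before being divided between the antibodies, without saying what a replicate was. The study describes the cultures as coming from its striated muscle knockout, in which the muscle creatine kinase promoter drives Cre in heart and skeletal muscle. The deposited lists hold positions without a value per library, so the spread between replicates is unknown and no test between genotypes was possible. All counts below describe regions that had already passed the cutoff, and none tests the effect of the knockout. The study gives an age range and both sexes for its mouse studies in general. Age and sex of the mice behind each culture are not given in the sources used here.

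H3K27ac marks active promoters and enhancers, the short stretches of DNA that transcription factors bind to raise the activity of a gene, often from a distance. Many enhancers of muscle lie inside introns, and the gene that holds an enhancer need not be the gene it acts on. Enhancers of muscle cells commonly hold E-boxes, bound by MyoD and its relatives, and sites for MEF2, TEAD and AP-1 factors. Genes are named below by the intron that holds a region, and the gene with the nearest start is given where it differs.

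The sequences below are chosen examples and not a random sample of the members. They are 300 bases around the centre of the intronic regions in Acsl1, Stat3 and Unc13c, which the study discusses, of the widest region, in Meis1, and of 3 regions in Nrxn3, Etl4 and Pla2g4a, which are among the 12 genes with the most members, taken for having the most kinds of motif. All are on the plus strand of GRCm38.p6 (mm10), from the RefSeq genome, and capitals mark matches to the 8 motifs searched on both strands. Lower case here does not mark repeats, and matches inside repeats were not excluded.
Pla2g4a, chr1:149846661-149846960: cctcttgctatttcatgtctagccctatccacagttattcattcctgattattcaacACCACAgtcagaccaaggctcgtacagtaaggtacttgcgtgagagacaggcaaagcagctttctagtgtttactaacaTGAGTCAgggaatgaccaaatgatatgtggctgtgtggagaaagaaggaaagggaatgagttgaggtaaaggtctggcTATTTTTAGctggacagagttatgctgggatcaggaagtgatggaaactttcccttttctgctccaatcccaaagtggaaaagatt
Nrxn3, chr12:89668954-89669253: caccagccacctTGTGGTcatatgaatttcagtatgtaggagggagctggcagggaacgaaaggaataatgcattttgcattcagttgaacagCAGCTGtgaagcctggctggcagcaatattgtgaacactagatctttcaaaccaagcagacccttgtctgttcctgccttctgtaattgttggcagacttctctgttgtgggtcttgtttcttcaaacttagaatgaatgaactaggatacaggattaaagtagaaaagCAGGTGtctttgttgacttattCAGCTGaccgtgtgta
Etl4, chr2:20697703-20698002: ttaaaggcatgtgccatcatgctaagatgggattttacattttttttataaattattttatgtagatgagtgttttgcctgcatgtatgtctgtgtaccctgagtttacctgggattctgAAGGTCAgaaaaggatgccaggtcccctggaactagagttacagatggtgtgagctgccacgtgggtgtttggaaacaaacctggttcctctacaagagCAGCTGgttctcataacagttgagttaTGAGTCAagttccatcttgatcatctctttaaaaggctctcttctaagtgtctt
Acsl1, chr8:46508720-46509019: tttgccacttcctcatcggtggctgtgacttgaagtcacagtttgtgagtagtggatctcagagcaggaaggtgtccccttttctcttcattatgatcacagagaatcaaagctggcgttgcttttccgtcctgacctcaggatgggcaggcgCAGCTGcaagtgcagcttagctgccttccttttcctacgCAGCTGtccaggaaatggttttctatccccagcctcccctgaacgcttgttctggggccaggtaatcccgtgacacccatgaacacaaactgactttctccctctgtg
Stat3, chr11:100931525-100931824: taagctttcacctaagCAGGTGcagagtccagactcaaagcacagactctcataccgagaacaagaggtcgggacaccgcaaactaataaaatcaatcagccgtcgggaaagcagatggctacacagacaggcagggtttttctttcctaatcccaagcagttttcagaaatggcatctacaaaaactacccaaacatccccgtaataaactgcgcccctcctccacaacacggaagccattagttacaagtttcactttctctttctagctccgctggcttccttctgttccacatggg
Unc13c, chr9:73683817-73684116: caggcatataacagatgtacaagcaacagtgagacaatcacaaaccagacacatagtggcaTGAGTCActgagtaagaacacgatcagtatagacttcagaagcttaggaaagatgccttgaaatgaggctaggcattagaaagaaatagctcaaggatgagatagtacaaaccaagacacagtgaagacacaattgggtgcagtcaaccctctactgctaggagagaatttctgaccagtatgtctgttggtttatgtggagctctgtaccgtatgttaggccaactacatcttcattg
Meis1, chr11:19017259-19017558: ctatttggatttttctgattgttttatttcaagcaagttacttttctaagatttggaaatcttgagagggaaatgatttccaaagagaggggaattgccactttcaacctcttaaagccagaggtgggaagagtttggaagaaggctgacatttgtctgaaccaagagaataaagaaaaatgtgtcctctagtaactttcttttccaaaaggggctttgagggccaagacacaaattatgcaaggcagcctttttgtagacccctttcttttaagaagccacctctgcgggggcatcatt
The Pla2g4a window held 1 AP-1 match, 1 MEF2 match and 1 RUNX match. The Nrxn3 window held 2 matches to CAGCTG, 1 to the other E-box and 1 to the RUNX letters. The Etl4 window held 1 match each to CAGCTG, AP-1 and the nuclear receptor site, and the Unc13c window 1 to AP-1. Both matches in the Acsl1 window were CAGCTG, and the Stat3 window had 1 match to the other E-box. The Meis1 window had no match to any of the 8 motifs, which says only that these letters are absent from these bases.

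Of the 3874 differential intronic regions on the chromosomes used, 1077 were increased and 2797 decreased, so the increased share was 27.8% (95% Wilson interval 26.4 to 29.2, counting error only). Among the 2358 increased regions of these chromosomes, 45.7% were intronic, 38.4% intergenic, 13.2% within 1 kb of a start and 2.71% exonic. Decreased regions were intronic in 51.4%. A further 733 increased and 958 decreased intronic regions lay on chromosomes 4, 7, 10 and 16 and are not among the members. Just inside the limit was a region in the first intron of Setd2, a histone methyltransferase, at 1005 bp from a start. Just outside it was a region of Fgfr1op at 995 bp, the farthest of 168 increased regions that met the intron rule in every respect but the distance.

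The members were narrow. Their median width was 760 bp, with quartiles of 501 and 1168 bp, and 501 bp was also the shortest width in the lists. Decreased intronic regions had a median of 870 bp. At least 1 kb was spanned by 343 members (31.8%) and at least 3 kb by 25, and 90 (8.36%) had been joined from several peaks. The region itself touched an exon or ran past the end of a gene in 95 members, although its centre did not. The widest member, 6104 bp at chr11:19014357-19020460, covered the start of Meis1, a homeobox factor, with its centre 1120 bp from the start in the first intron. The next, 5490 bp, was wider than the single intron of 2951 bp that held its centre, in En1, another homeobox gene. Fbln5, which encodes a protein of elastic fibres, held 5459 bp in intron 5 of 10, at 49.7 kb from its start. The other members among the 6 widest were in Adamts6 (4805 bp), in Pdlim1 (4654 bp), which encodes a cytoskeletal LIM protein, and in Baz2b (4648 bp), which encodes a bromodomain protein.

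The members fell into 820 host genes, of which 703 (85.7%) were protein-coding and 72 were lincRNAs. Most hosts, 661, held a single member, 107 held 2, and 52 held 3 or more. Those 52 genes together held 202 members (18.8%). The members of the 12 leading hosts are shown along each gene in the plot of leading hosts.

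Pla2g4a led all hosts. It encodes cytosolic phospholipase A2, which frees arachidonic acid from membrane lipids. Its 12 members spread over 8 of 17 introns and covered 16576 bp within 127 kb, nearly the whole gene of 132 kb. Their widths ranged from 501 bp to 4300 bp, the widest being in the first intron at chr1:149945094-149949393. The gene also had an increased promoter region and no decreased intronic one. In the 3 members toward its 3' end the nearest start was that of a small RNA gene, n-R5s219.

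Nrxn3, a neurexin of presynaptic membranes, held 9 members in 2 introns of a gene of 1612 kb, all in the part between 58.7% and 88.1% of its length. Of these, 7 were in intron 13 of 18, which is 443 kb long. Adamts6 and Adamts20, both secreted metalloproteases of the extracellular matrix, held 6 each. In Adamts6, 1 member of 4805 bp lay 1939 bp from a start and the other 5 lay in introns 20 to 24, between 77.2% and 97.4% of the gene length. In Adamts20 the 6 members lay between 11.2% and 40.5% of the gene length, counted from the 5' end. Cpne4, a copine that binds membranes in response to calcium, also held 6, of which 3 were in its first intron. None of these 4 genes held a decreased intronic region.

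**Figure D1:**
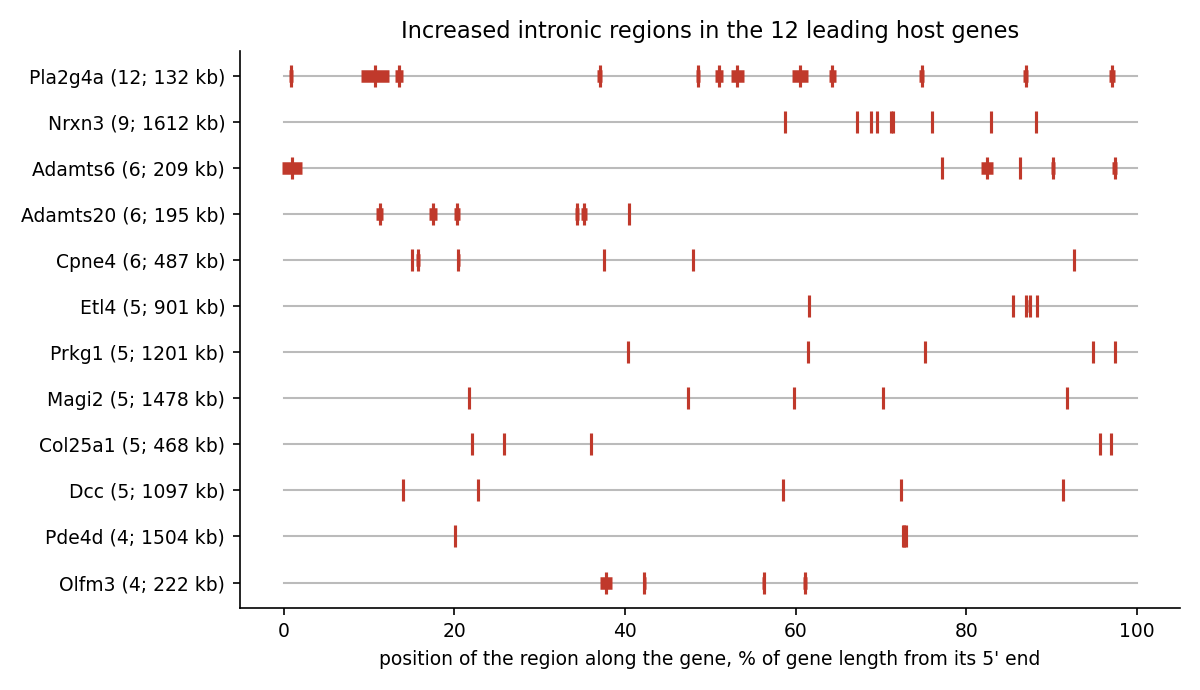
Positions of the increased intronic regions in the 12 host genes with the most, as percent of the gene's length from its 5' end (horizontal axis). Ticks mark region centres, thick bars their widths to scale, and labels give the number of regions and the gene length. The 12 regions of Pla2g4a run from end to end of the gene, while the 9 of Nrxn3 and 5 of the 6 of Adamts6 lie in the 3' part.

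The remaining leading hosts held 4 or 5 members each. Etl4, whose 5 members included 1 of 3516 bp, had 4 of them in intron 5, within 26.3 kb. Prkg1, the cGMP-dependent protein kinase, held 5 over 686 kb and 1 decreased region. Col25a1, a membrane collagen of muscle that motor axons need, held 5, of which 3 lay in its second intron of 204 kb and 2 within 5179 bp of each other near the 3' end. In all 5 Col25a1 members the nearest start belonged to another gene. Dcc, the netrin receptor of growing axons, held 5 spread over 850 kb, and 3 of them were the members farthest from any start, at 650, 642 and 441 kb. Pde4d, a phosphodiesterase that breaks down cAMP, held 4, of which 3 stood in a row of 7.43 kb with 76.0% of that row covered. Olfm3, a secreted olfactomedin protein, held 4, all in its first intron of 186 kb.

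Both directions met in some hosts. Of the 820 hosts, 209 (25.5%) also held a decreased intronic region. Among all protein-coding genes with an intron 9.93% held one, and among those of 100 to 200 kb 30.3%. The median host was 121862 bp long, and the part of gene length in this overlap was not tested. Decreased intronic regions had 1746 hosts in all. Magi2, a scaffold of cell junctions, held 5 increased and 4 decreased, and Pde4d held 4 of each. Nckap5 held 2 increased, 601 bp apart, with 8 decreased, and Pard3, a cell polarity protein, held 1 with 8. Gm20388, an annotated gene of 4435 kb that overlaps many others, held 1 with 21, and the nearest start to its member was that of Foxc2, a forkhead factor, at 1047 bp.

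Few hosts carried a change at their own promoter. An increased region within 1 kb of a start was found for 50 hosts (6.10%), against 2.35% of the hosts of decreased intronic regions and 1.60% of 15826 protein-coding genes with an intron. A decreased promoter region was found for 26 hosts (3.17%), against 6.87% of the hosts of decreased regions and 2.76% of the genes. The direction at the promoter was thus more often that of the intronic regions in both sets, as counts without a test. Long genes hold more regions of either kind and have more starts, and their part in these shares was not tested.

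Host genes were long. Of the 15826 protein-coding genes, 714 (4.51%) held an increased and 1571 (9.93%) a decreased intronic region. Their median length was 20.0 kb, that of genes with an increased region 131 kb and that of genes with a decreased one 85.8 kb. An increased region was held by 0.443% of genes up to 20 kb, 15.2% of those between 100 and 200 kb and 42.9% of those above 500 kb. For decreased regions the shares were 1.49%, 30.3% and 43.5%. Per Mb of gene body, increased regions numbered 0.522 in the shortest class, 1.42 between 100 and 200 kb and 1.01 above 500 kb. Decreased regions numbered 1.75, 4.01 and 1.57 per Mb in the same classes. Genes above 500 kb were hosts of 14.5% of the members (12.5 to 16.7), 7.40% of decreased intronic regions and 18.2% of positions on a regular grid of introns, one every 10 kb under the same rule.

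**Figure D2:**
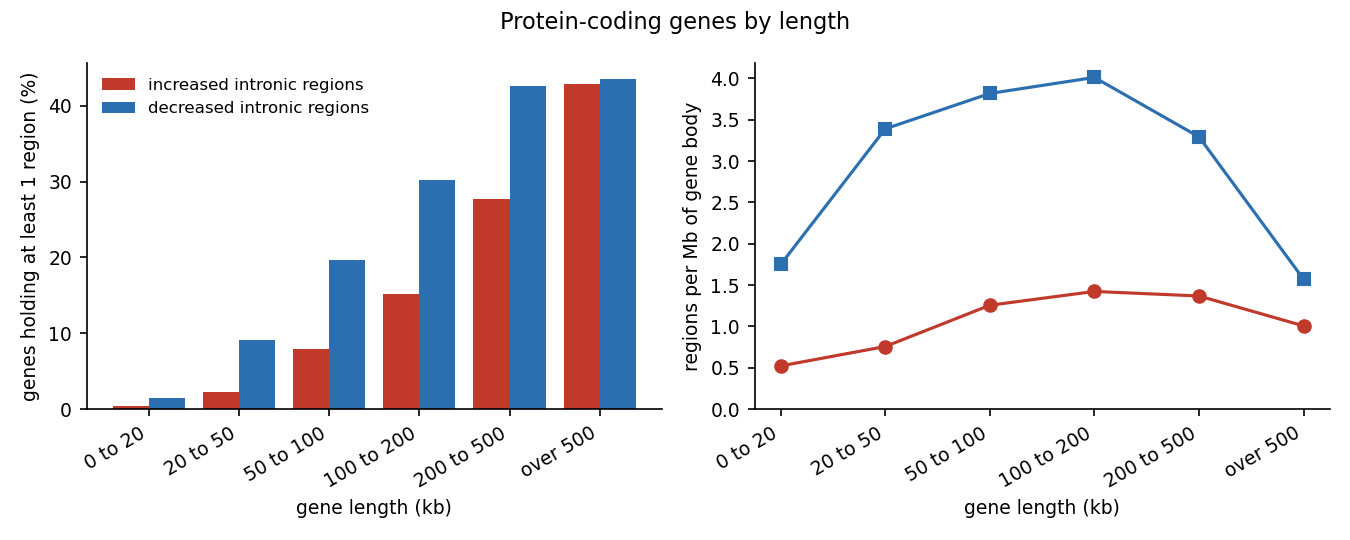
Share of protein-coding genes holding at least 1 region (left) and regions per Mb of gene body (right) in 6 classes of gene length in kb, for increased (red) and decreased (blue) intronic regions. The share reaches 42.9% and 43.5% above 500 kb, while density peaks between 100 and 200 kb at 1.42 and 4.01 per Mb.

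Members lay far from starts, about as far as intronic sequence in general. The median distance to the nearest start was 12.5 kb, with quartiles of 5.26 and 31.1 kb, against 10.1 kb in decreased intronic regions and 13.6 kb on the grid. Between 1 and 5 kb lay 256 members (23.8%), between 5 and 10 kb 210 (19.5%), between 10 and 50 kb 447 (41.5%), between 50 and 100 kb 112 (10.4%) and beyond that 52 (4.83%). The share beyond 100 kb was 2.25% in decreased regions and 5.97% on the grid. The nearest start belonged to the host in 648 members (60.2%, 57.2 to 63.0), in 64.5% of decreased regions and in 58.9% of grid positions. The first intron held 345 members (32.0%, 29.3 to 34.9), against 35.5% of decreased regions and 28.7% of the grid, and the last intron held 134 (12.4%). Along the host the members were spread from end to end, with a median position of 48.1% of gene length and quartiles of 22.6% and 71.2%. The introns that held them had a median length of 36.9 kb.

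**Figure D3:**
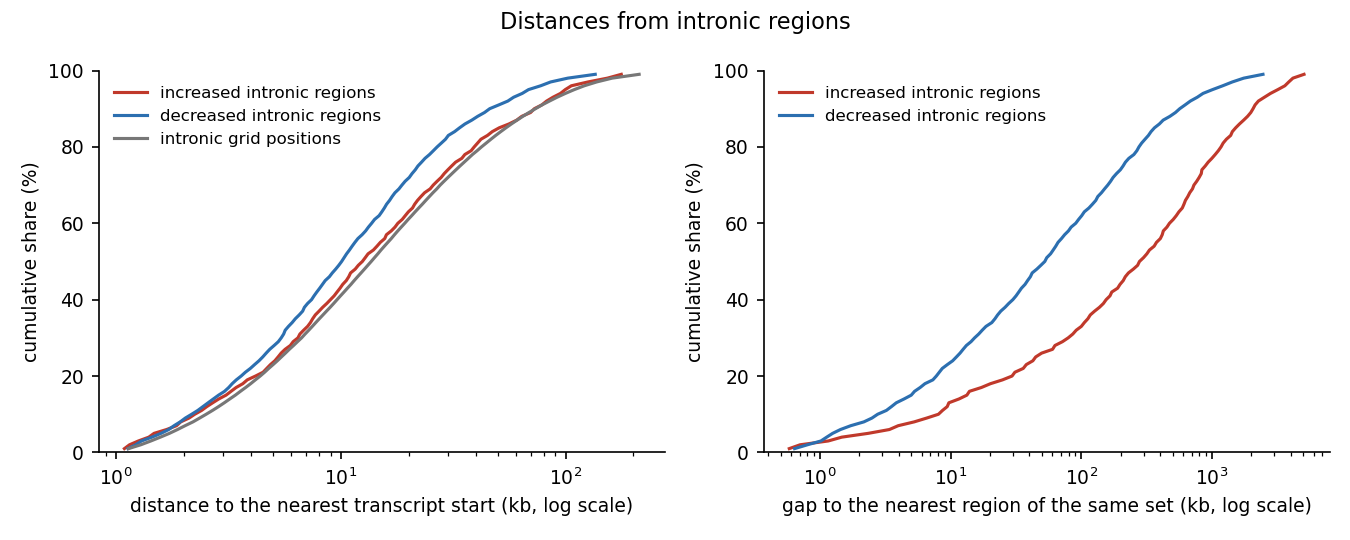
Cumulative share of regions by distance to the nearest transcript start (left) and by gap to the nearest region of the same set (right), in kb on log axes, for increased (red) and decreased (blue) intronic regions and grid positions (grey). The red curve for distance lies near the grey one, with medians of 12.5 and 13.6 kb. The red curve for gaps lies right of the blue one, which holds more regions (2797 against 1077).

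Clusters were few. The median gap from a member to the nearest other one was 278924 bp, with quartiles of 44794 and 888573 bp, and the smallest was 394 bp. Another member lay within 10 kb of 141 members (13.1%), within 50 kb of 282 (26.2%) and within 100 kb of 355 (33.0%), while 248 (23.0%) had none within 1000 kb. Decreased intronic regions, which number 2797 against 1077, had shares of 23.3%, 49.2%, 61.9% and 5.11%. These shares were not adjusted for the number of regions, so they do not show which set is more clustered. When members with gaps up to 50 kb were joined, 913 loci remained, of which 118 held 2 or more and 25 held 3 or more, with 96 members (8.91%). The largest were those of Pla2g4a, with 12 members over 127 kb, and of Adamts20, with 6 over 58.3 kb and 12.8% of that stretch covered. Adamts6 followed with 5 over 42.9 kb and Nrxn3 with 5 over 69.6 kb. None of these 4 loci held a decreased region of any class.

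The nearest neighbour at short range was mostly increased too. Among differential regions of any class and either direction, the nearest to a member was increased for 623 (57.8%) and decreased for 454. Where the nearest was within 10 kb, it was increased for 162 (77.5%) and decreased for 47. Where it was more than 50 kb away, the counts were 297 (52.3%) and 271. For comparison, increased regions made up 2358 of the 7803 regions on these chromosomes. An increased promoter region lay within 100 kb of 111 members (10.3%).

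By chromosome, the increased share of differential intronic regions ran from 15.8% on chromosome 11 (12.2 to 20.4) and 19.1% on chromosome 8 to 38.1% on chromosome 13 (32.0 to 44.5) and 54.5% on X (41.5 to 67.0), beside 27.8% over all. X held 30 members and 25 decreased regions, the only chromosome of those used with more increased than decreased. Per Mb of intron, however, members were sparsest on X (0.669) and chromosome 14 (0.727) and densest on chromosome 18 (2.26). The X chromosome thus stood apart by few decreased regions, 0.557 per Mb against 1.23 to 5.03 on the others. DNA copy number and the sex of the cultures cannot be told apart from acetylation in these lists. In windows of 10 Mb, 18 of 221 held no member and 30 held 10 or more, and the fullest, at 110 to 120 Mb of chromosome 9, held 18 beside 24 decreased.

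**Figure D4:**
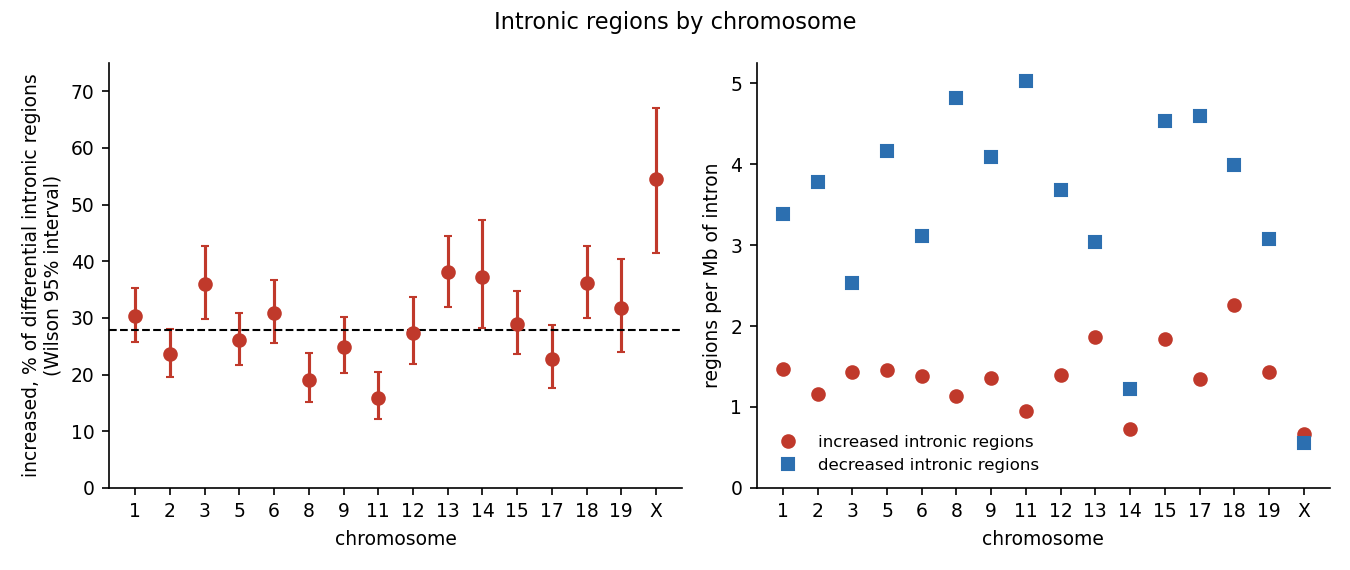
Left, increased regions as percent of differential intronic regions on each chromosome used, with Wilson 95% intervals and the overall share as a dashed line. Right, regions per Mb of intron, increased (red circles) and decreased (blue squares); X has the highest share, 54.5%, and the lowest densities of both kinds.

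Lists of genes of muscle, metabolism, signalling pathways, matrix, cell adhesion and axon guidance were read for hosts. Several of these lists, cell adhesion and guidance among them, are not particular to muscle. They are set beside the 4.51% of genes that held an increased and the 9.93% that held a decreased region. In these lists a host is any listed gene whose body holds the centre. Gene length differs between the lists and was not matched. The largest count was in cell adhesion, where 19 of 56 genes held increased regions (44 in all) and 19 held decreased ones (50 in all), 6 of them both. These genes are long, with a median of 327 kb, and genes of 200 to 500 kb held increased regions in 27.7% and decreased ones in 42.7%. Besides Nrxn3 and Magi2, Ctnnd2, a catenin, and Itga9, an integrin subunit, held 4 each, Magi1 held 3 and Cntnap2 held 2. Itga9 also held 3 decreased regions and Magi1 4, while Ctnnd2 and Cntnap2 held none.

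The dystrophin complex, which ties the cytoskeleton of the muscle fibre to the matrix, had 7 hosts of increased regions among 23 genes and 5 of decreased. Of these genes 4 held both. Dmd, the dystrophin gene itself, held 3 members over its 2257 kb, had an increased promoter region and held no decreased region. Sntg1, a syntrophin gene of 938 kb, also held 3 and no decreased one. Dtna and Dtnb, the dystrobrevins, and Sgcb, a sarcoglycan, and Sntb1, another syntrophin, held 1 each. Of 28 genes of the neuromuscular junction, the synapse between motor nerve and muscle, 6 held increased and 4 decreased regions. These hosts were Col25a1, Nrg1, a ligand from nerve terminals, Ntrk2, a neurotrophin receptor, Prkca, Stat3 and Unc13c. The study named Stat3 and Unc13c from the overlap of its increased H3K27ac regions with genes raised in expression. Those 2 are thus not independent of the regions described here. Nrg1 also held 2 decreased regions and Prkca 1. Stat3 is 54.4 kb long, and the others are between 327 and 1069 kb. Genes of 200 to 500 kb held increased regions in 27.7% and those above 500 kb in 42.9%. The part of gene length in the counts of both lists was not tested.

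Unc13c, which primes synaptic vesicles, held 1 member of 793 bp at chr9:73683571-73684363 in intron 13 of 32, 249.6 kb from its own nearest start. A start of Gm27148 was nearer, at 7275 bp. Stat3, a factor activated by cytokines, held 1 of 1531 bp at chr11:100930910-100932440 in its first intron, 7705 bp from its start. In fatty acid metabolism 2 of 42 genes held an increased region and 9 a decreased one. The 2 were Esrrg, a nuclear receptor of oxidative metabolism that also held 3 decreased regions, and Acsl1, which joins long-chain fatty acids to coenzyme A. The Acsl1 member was 1755 bp wide at chr8:46507993-46509747 in intron 4 of 20, 16038 bp from its start, and no other member lay within 685 kb. The gene held no decreased intronic region. The study named Acsl1 from the same overlap of increased regions with expression, so it too is not independent of these regions.

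Among 44 nuclear receptors and their coregulators 5 held increased and 13 decreased regions. Nr3c2, Pparg, Ncoa3 and Esrrg held 1 each beside 1 to 4 decreased. Of 38 myogenic and developmental factors 9 held increased and 14 decreased regions. Runx2, a factor of bone formation, held 3 members and 1 decreased region, and Tcf4, an E-protein partner of MyoD, held 2 of each. Mef2c, a factor of muscle differentiation, held 1 of 756 bp at 13.9 kb from its start, and Meis1, Six2, Hdac9 and Tcf12 were also hosts. Tcf12 held 2 decreased regions as well. Of 47 sarcomere genes 5 held increased and 6 decreased regions, with Neb, whose product nebulin sets thin filament length, Smyd1, Synpo2 and Tpm3 among the hosts of increased ones. Synpo2 also held 1 decreased region. Excitation and contraction coupling had 7 of 32 genes with increased and 16 with decreased regions. Atp2a2, the calcium pump of the sarcoplasmic reticulum, Cacng1, a subunit of the muscle calcium channel, Cacna2d1 and Slc8a1 held 1 increased and no decreased region each. Camk2d, a calcium-activated kinase, and Itpr2, a calcium release channel, held 1 increased and 3 decreased each, and Kcnma1, a potassium channel, held 1 of each.

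In the extracellular matrix list 6 of 44 genes held increased and 9 decreased regions, with Col19a1 holding 3 over 6933 bp in all, Col5a2 2, and Mmp2, a gelatinase, 1 of 3404 bp. Col19a1 also held 1 decreased region. Axon guidance had 6 of 35 with increased and 11 with decreased regions, led by Dcc and Sema3a. Of these Sema3a also held 1 decreased region and Dcc none. The remaining pathway lists had fewer hosts of increased than of decreased regions. Insulin and glucose signalling had 5 and 12 of 31, among the 5 the insulin receptor gene Insr, and Wnt signalling had 4 and 5 of 39. Angiogenesis had 3 and 5 of 35, with Fgf2, Nrp1 and Angpt1 holding increased regions, and the TGF-beta and BMP list had 2 and 8 of 37, the 2 being Smad4 and Smad9. Insr and Angpt1 also held 1 decreased region each.

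Markers of other cell types that a muscle culture can hold were also read, beside the same 4.51% and 9.93% of all genes. An increased intronic region was held by 0 of 22 fibroblast markers, 0 of 10 macrophage markers and 0 of 7 Schwann cell markers, and by 1 each of 13 endothelial, 10 adipocyte and 14 smooth muscle markers, namely Mecom, Pparg and Synpo2. Decreased regions were held by 1, 1, 1, 3, 1 and 4 of these lists in the same order. Mecom, Pparg and Synpo2 were among the hosts of decreased regions too. Positions in the lists give no level of acetylation, so the makeup of the cultures was not tested.

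The median GC content of the members was 42.0% (quartiles 39.2 and 45.2), against 47.7% in decreased intronic regions and 42.0% in the 80006 grid windows of 500 bp. CpG dinucleotides numbered 7.98 per kb in the median member, 9.17 in decreased regions and 6 on the grid. Repeats masked in the genome covered 15.0% of the median member, 13.6% of decreased regions and 21% of grid windows.

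Motifs were searched by their letters on both strands in the 500 bp around each centre. The E-box CAGCTG, its own reverse complement and typical of MyoD, was in 27.5% of members (24.9 to 30.2), 37.1% of decreased regions and 18.2% of grid windows. The E-box CACCTG was in 23.0%, 32.3% and 27.3%. The AP-1 letters TGACTCA, bound by Fos and Jun proteins, were in 15.6% of members (13.6 to 17.9), 12.5% of decreased regions and 7.97% of the grid. The TEAD letters ACATTCC or GCATTCC were in 19.3% (17.1 to 21.8), 14.7% and 11.7%. The MEF2 letters CTAAAAATA were in 3.34% (2.42 to 4.59), which is 36 members, against 1.11% and 1.36%. RUNX letters TGTGGT were in 35.3%, 37.5% and 31.9%. The nuclear receptor letters AAGGTCA were in 9.38%, 10.3% and 9.16%, and the ETS letters CCGGAAG in 1.86%, 1.82% and 1.36%. None of the motifs contains another, although matches may overlap at their ends. A match is a description of the letters and does not show that a factor was bound.

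The shares of CAGCTG and MEF2 letters moved with GC content, and that of AP-1 letters in members moved little. Below 40% GC, CAGCTG was in 19.7% of members and 20.4% of decreased regions, and between 40 and 45% in 26.0% and 31.8%. It was in 36.0% and 35.7% between 45 and 50%, and in 44.6% and 45.1% at 50% or more. Within bands the CAGCTG shares thus differed by more than 1 percentage point only between 40 and 45%, beside 27.5% against 37.1% over all windows. In the same bands, from low to high GC, CACCTG was in 16.3%, 21.6%, 31.6% and 34.9% of members. In decreased regions it was in 16.7%, 22.9%, 32.5% and 41.0%. AP-1 letters were in 66 of 416 members and 76 of 632 decreased regions of 40 to 45% GC, and in 38 of 228 and 132 of 976 in the next band. They were in 50 of 350 and 19 of 186 below 40%, and in 14 of 83 and 123 of 1003 at 50% or more. MEF2 letters, which are rich in A and T, were in 4.86% of members, 1.61% of decreased regions and 2.22% of grid windows below 40% GC, and in 4.09%, 1.58% and 1.12% between 40 and 45%, while between 45 and 50% 2 members had them and at 50% or more 0 of 83. In the central 200 bp, AP-1 letters were in 5.57% of members and 5.33% of decreased regions, MEF2 letters in 1.39% and 0.465%, and TEAD letters in 9.29% and 6.36%.

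**Figure D5:**
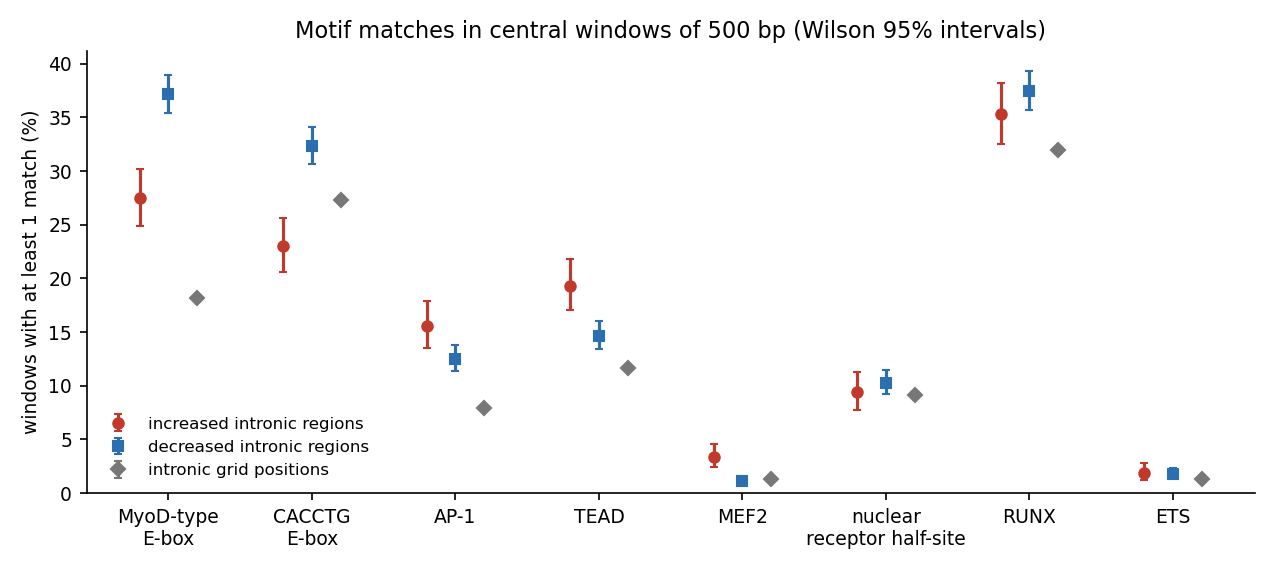
Share of central windows of 500 bp with at least 1 match to each of 8 motifs, with Wilson 95% intervals that cover counting error only, for increased (red) and decreased (blue) intronic regions and grid windows (grey). CAGCTG stands at 27.5, 37.1 and 18.2% and the AP-1 letters at 15.6, 12.5 and 7.97%.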

How the data were processed

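CUT&RUN for H3K27ac and IgG was performed by the authors on primary myotubes, and 2 lists of regions were deposited, 1 per direction. Per the labels and methods, reads were aligned to mm10 with BWA-MEM2 (v2.2.1), broad peaks were called with HOMER (v4.11), and differential regions had a peak intensity that differed by at least the authors' cutoff. How replicates and IgG entered the calls is not stated, and the labels and methods name different suppliers of the H3K27ac antibody. The deposited columns used were start and end positions, counted from 1 here. A difference in depth, reaction efficiency or DNA copy number between cultures would pass into the calls, and depth per library is unknown.

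Genes, starts and exons were from GENCODE M21 on the same build, and sequence was from GRCm38.p6. Regions were placed by their centre. The host was the shortest protein-coding gene holding the centre, or else the shortest other gene, and introns were numbered in its longest transcript. Promoter means within 1 kb of a start. Introns were sampled every 10 kb as the grid. The 20 gene lists, the motifs and the members were chosen with earlier results of these data known, so no count is independent support. Genes were named by rule: the 12 hosts with most members, up to 6 hosts per list, hosts of the 6 widest, of the 4 largest loci at 50 kb, of the 3 regions farthest from a start and of both directions (up to 5), the regions at the limit, and Acsl1, Stat3 and Unc13c. Foxc2, Gm27148 and n-R5s219 were named as the nearest starts. Some genes that the rule names are not reported here. No test was run. Intervals are Wilson 95% intervals. Analyses used Python 3.11.15, pandas 2.3.3, NumPy 2.4.6, SciPy 1.17.1 and matplotlib 3.10.9, and the functions were tested on made-up annotation with known answers.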

Additional observations from a re-analysis of the deposited data

How the results depend on the processing

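Of 63 alternatives over 17 results, 31 stayed within the bounds set by the reported value (1.5 times for counts, a 95% interval for shares and medians) and 32 did not. With protein-coding genes alone the median distance to a start was 18916 bp and the nearest start belonged to the host in 88.8%. With regions at least 1 kb wide there were 343 members in 290 hosts, the increased share was 22.7%, and 20.7% had another member within 100 kb. With a start limit of 2.5 kb the median distance was 15521 bp and the median host length 131748 bp, against 12462 and 121862 bp in the members. With all of chromosomes 1 to 19 and X there were 1810 regions, the increased share was 32.5%, the median GC content 42.6%, the share with a neighbour within 100 kb 47.6% and the median host length 107047 bp. The neighbour share was 13.1% at 10 kb and 26.2% at 50 kb. Numbering introns in the transcript with the nearest upstream start put 43.6% of members in a first intron. Motif shares follow the length searched. In the central 200 bp they were 12.3% for CAGCTG, 9.29% for CACCTG, 5.57% for AP-1, 9.29% for TEAD, 1.39% for MEF2, 2.97% for the nuclear receptor letters, 17.5% for RUNX and 1.02% for ETS. In the whole region they were, in the same order, 43.0%, 36.9%, 24.2%, 29.5%, 4.64%, 17.0%, 52.8% and 3.34%. Taking the longest host, an alternative chosen after seeing the data, gave 816 hosts. No replicate could be left out, because the lists hold no value per library. No paired analysis was possible because the lists carry no replicate. The authors' cutoff could not be varied.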
